A study of Mus musculus with 6 samples.

Results

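The sites described here are adenosines of the mouse genome that lay between annotated genes according to the deposited site table and were read as G in fetal liver RNA. A member had to be labelled intergenic in that table, lie on chromosomes 1 to 19, and be covered by at least 10 reads summed over the 3 wild-type libraries and at least 10 reads summed over the 3 E861A libraries. The deposited table held 6012 sites. Intergenic were 1028 of them, 977 of these were on chromosomes 1 to 19, and 435 met the coverage rule, out of 3883 sites of all locations that met it. The coverage rule used no editing level, but part of the deposited table was itself found in these data. Of the members 86 were labelled both known and found in these data, 48 found in these data alone and 301 known only. Lower in E861A, as called below, were 46, 13 and 18 of them. How far entry through reads of these libraries shaped the falls described below was not tested. The 435 members fell into 205 regions when sites up to 1000 bases apart were joined. A total of 94 regions held 1 member, and the largest held 10.

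The material was whole fetal liver of C57BL/6 embryos at embryonic day 12.5, taken as a suspension of single cells. Wild-type livers were numbered 2 (a male), 15 and 17 (females). Mutant livers were numbered 6, 16 and 19 (males) and came from Adar1 E861A/E861A embryos. These carry the mutation on both alleles in every cell, with no Cre or transgene named in the labels, and their ADAR1 protein has 1 residue of the catalytic domain replaced and does not edit. Sex is thus partly confounded with genotype. The labels name no litter. P-values of the gene tests and the permutation tests measure the spread between these 6 livers, and those of Fisher's test on summed reads, given for single sites, do not include it. Reads counted in genes were 35280460 to 43733715 per library.

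Adenosine deaminases that act on RNA bind duplex RNA and turn adenosine into inosine, which reverse transcriptase copies as if it were G. ADAR1 is the main editor in blood and liver, and the related enzyme ADAR2 is encoded by Adarb1. Many editing sites lie in repeat copies that sit head to head in 1 transcript and fold back on each other. Transcripts often run past the annotated 3′ end of a gene, so that a site between genes can belong to an extended 3′ UTR. ADAR1 editing of such duplexes is known to keep the sensor MDA5 from responding to the cell's own RNA, and interferon-stimulated genes rise where it is lost.

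The genes of the editing enzymes were measured in the same libraries. Adar transcripts stood at 56.7, 79.0 and 57.3 counts per 1e6 reads (CPM) in wild type 2, 15 and 17, and at 275, 344 and 334 CPM in E861A 6, 16 and 19. The groups did not overlap, and the log2 fold change was 2.30 ± 0.19 (SE; adjusted p = 0.00026, edgeR quasi-likelihood test). The gene count does not show the mutation itself, which leaves the transcript in place. Adarb1 averaged 10.2 ± 2.0 CPM in wild-type livers against 9.08 ± 1.8 CPM in E861A livers (SD, 3 livers each), a log2 fold change of -0.16 (adjusted p = 0.72). Adarb2, a family member without known editing activity, had 6.69 ± 0.62 and 6.62 ± 0.46 CPM (log2 fold change -0.02, adjusted p = 0.97).

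The sequences around the sites with the largest falls are shown first, since they carry the edited base and, where one was found, the copy that could pair with it. Each window holds the edited base and 14 bases on either side, 5′ to 3′ on the strand of the edited A, from the NCBIM37 genome, and capitals mark each A that is a member site.
Ift52 near site, chr2:162873252-162873280, plus strand: gacattgtttctctAtgtagccttggcca
Ift52 far site, chr2:162873506-162873534, plus strand: gctagttctaggatAgtctgggctacacA
Orc2, chr1:58517129-58517157, minus strand: cagagcgagttccAAgacagccagggcca
Stam, chr2:14070294-14070322, plus strand: tgatggacacccttAAtctcagcactcag
Paox, chr7:147321612-147321640, plus strand: ggatctgagctgctAgggatgggttgggg
Mrps17, chr5:130226620-130226648, plus strand: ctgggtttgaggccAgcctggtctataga
Casc5 far site, chr2:118933159-118933187, plus strand: tagtcccaaggataActagagctatacag
Casc5 near site, chr2:118933075-118933103, plus strand: tggtgcagatctttAatcctagcattcag
Brf1, chr12:114196439-114196467, minus strand: ccacactggaccttAgaAgagggaattag
BC005537, chr13:24907407-24907435, plus strand: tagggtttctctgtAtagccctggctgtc
In these names the gene is the nearest one on the same strand, and each of these sites lay past its 3′ end.

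Inverted copies of several of these windows lay nearby on the same chromosome. Below, the stretch of the copy that would face the window is printed 5′ to 3′ on the strand of the RNA, and the capital is the base opposite the edited A.
Copy facing the Ift52 near site, within chr2:162872220-162872314: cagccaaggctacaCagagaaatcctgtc
Copy facing the Ift52 far site, within chr2:162873240-162873326: tatgtagccttggcCatactggaactccc
Copy facing the Orc2 site, within chr1:58516964-58517045: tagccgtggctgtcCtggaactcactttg
Copy facing the Casc5 far site, within chr2:118932642-118932726: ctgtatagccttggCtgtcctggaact
Copy facing the Casc5 near site, within chr2:118932715-118932786: ctgagtgctggtatCaaaggcgtgcatca
Copy facing the BC005537 site, within chr13:24906470-24906556: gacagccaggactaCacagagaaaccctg
In all 6 the base opposite the edited A was C, an A-C mismatch, and 20 to 26 of the 29 aligned columns of a window matched. The copy facing the Ift52 far site holds the Ift52 near site, so these member sites lie in stretches that can face each other.

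Editing at the members was far lower in E861A than in wild type. Over the members the mean level of a library was 10.9, 16.1 and 14.9% (wild type 2, 15 and 17) against 3.36, 3.18 and 3.98% (E861A 6, 16 and 19). The groups did not overlap, and wild type 2 was the lowest of its group. The means were 14 ± 2.7% and 3.51 ± 0.42% (SD, n = 3 each), a difference of -10.5 percentage points (two-sided exact permutation test, p = 0.10, the smallest that 3 against 3 libraries can give). Edited reads over all covering reads, which weights members by depth, came to 7.53, 9.98 and 9.40% in wild type and to 1.58, 2.81 and 2.80% in E861A (exact permutation p = 0.10). The number of members with at least 1 edited read was 242 to 285 per wild-type library and 55 to 81 per E861A library.

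Site by site, 77 of the 435 members (17.7%) had a lower level in E861A and 0 had a higher one (two-sided Fisher's exact test on reads summed per genotype, adjusted p under 0.05 over all 3883 sites). Over all 3883 sites 16.7% were lower and 0.155% higher, so the members' share was near that of the whole table. Without E861A 6 fewer members met the read minimum, and 48 of 357 (13.4%) were lower, against 13.2% of all sites tested in that setting. Male libraries alone leave only wild type 2 in its group, so no count is given for them. At an unadjusted p under 0.05, 125 members were lower and 3 higher. This test pools the reads of a genotype. A quasi-binomial fit over the 6 libraries, which counts the spread between them and has 4 residual degrees of freedom, called 0 of 3883 sites lower after adjustment (0%). Its smallest adjusted p over the members was 0.074, and at an unadjusted p under 0.05 it had 86 members lower and 0 higher, among them 70 of the 77. In 108 members (24.8%) each wild-type library lay above each E861A library, against 20.3% of all tested sites. The opposite order held in 2 members (0.46%), against 0.361% of all tested sites.

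The 77 lower members lay in 40 regions. Their wild-type level was 21.8% at the median and ranged from 3.76 to 70.0%. In E861A 55 of them had 0 edited reads and 9 stayed above 1%. Wild type 2 was the lowest wild-type library at 43 of these sites, and the mean over the 77 was 19.9, 29.3 and 29.9% in wild type 2, 15 and 17. In E861A 6, 16 and 19 the same mean was 0.619, 0.442 and 0.737%. These sites were chosen by the contrast, so the last values describe them and test nothing.

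**Figure D1:**
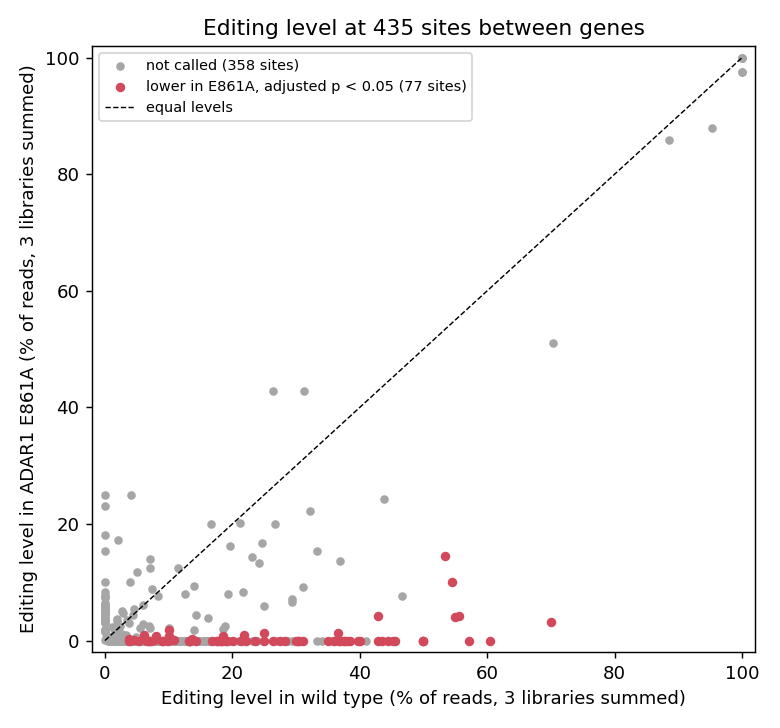
Editing level in E861A (vertical axis, %) against wild type (horizontal axis, %) at the 435 members, with reads summed over 3 libraries per genotype. The 77 sites called lower (red) lie along the bottom, at most at 14.6% in E861A, while a few uncalled sites (grey) lie on the dashed line of equal levels.

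The other 358 members were not called. In E861A 250 of them had 0 edited reads, 298 were lower than in wild type, 55 were higher and 5 equal. Their wild-type level was 7.08% at the median. Their depth was lower too, with a median of 31 wild-type reads against 84 at the called members. The share called rose with the reads of the shallower genotype: 8.23% of 158 members with 10 to 19 reads, 14.4% of 167 with 20 to 49, 30.2% of 63 with 50 to 99, and 44.7% of 47 with 100 or more. At 171 of the 250 uncalled members without an edited read in E861A, the wild-type level itself was below what 3 edited reads would make of the E861A cover, so a fall was not detectable at this depth. Close to the read minimum values were alike on both sides, while the excluded sites as a whole had higher levels in both genotypes, given in the last section. The 37 intergenic autosomal sites with 10 or 11 reads in the shallower genotype had 18.6% edited reads in wild type and 6.13% in E861A, and the 58 sites with 8 or 9 reads had 17.7 and 5.72%.

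The 12 named sites with the largest falls had at least 20 reads in each genotype and libraries that did not overlap. Ift52 encodes a part of the transport machinery of cilia. Its near site, 1389 bases past the 3′ end, was edited in 4 of 8, 4 of 5 and 6 of 7 reads in wild type 2, 15 and 17, and in 1 of 11, 0 of 8 and 0 of 12 reads in E861A 6, 16 and 19. That is 70.0% against 3.23% (95% Wilson intervals 48.1 to 85.5% and 0.572 to 16.2%; adjusted p = 5.95e-06). Its far site, 1643 bases past the end, went from 10 of 20 reads to 0 of 20, where 0 edited reads allow a level of up to 15% (adjusted p = 0.0037). Every wild-type library was edited at both sites, although wild type 17 gave 4 of 4 reads at the far site and wild type 2 only 1 of 5.

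Orc2 is a subunit of the origin recognition complex, which marks the start points of DNA replication. The site 2472 bases past it, which also lies within Nif3l1 on the other strand, had levels of 43.5, 52.0 and 80% in wild type and of 11.8, 0 and 0% in E861A. The fall was from 35 of 63 to 2 of 47 reads (adjusted p = 6.26e-08). Stam, an adaptor of endosomal sorting, was followed by edited neighbours 343 and 344 bases past its 3′ end. The first went from 11 of 20 to 1 of 25 reads (adjusted p = 0.0015) and the second from 10 of 20 to 0 of 25 (adjusted p = 0.00062). The first was not called without E861A 19 or with male libraries only.

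Mrps17, a protein of the mitochondrial ribosome, had the firmest fall of the group with 14 of 39, 14 of 25 and 12 of 26 edited reads in wild type and 0 of 27, 0 of 11 and 0 of 25 in E861A. The summed level was 44.4% against 0%, with 4.76% as the level that 3 edited reads would have (adjusted p = 2.24e-10). Casc5, a kinetochore protein of dividing cells, had 2 such sites 1852 and 1936 bases past its end. They were edited at 38.0 and 39.7% in wild type and in 0 of 37 and 0 of 39 reads in E861A (adjusted p = 9.17e-05 and 1.44e-05). Here all 3 wild-type libraries lay at 29.2% or more at both sites.

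The sites past Paox and BC005537 also rested on few reads. Paox, a polyamine oxidase, had 12 of 22 edited reads in wild type and 2 of 20 in E861A, both in liver 19 (adjusted p = 0.021). BC005537 had 9 of 21 and 1 of 24 (adjusted p = 0.020). The Paox call was lost without wild type 17, without E861A 6 or 16 and with male libraries only, and the BC005537 call without wild type 15 or any 1 of the E861A livers.

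**Figure D2:**
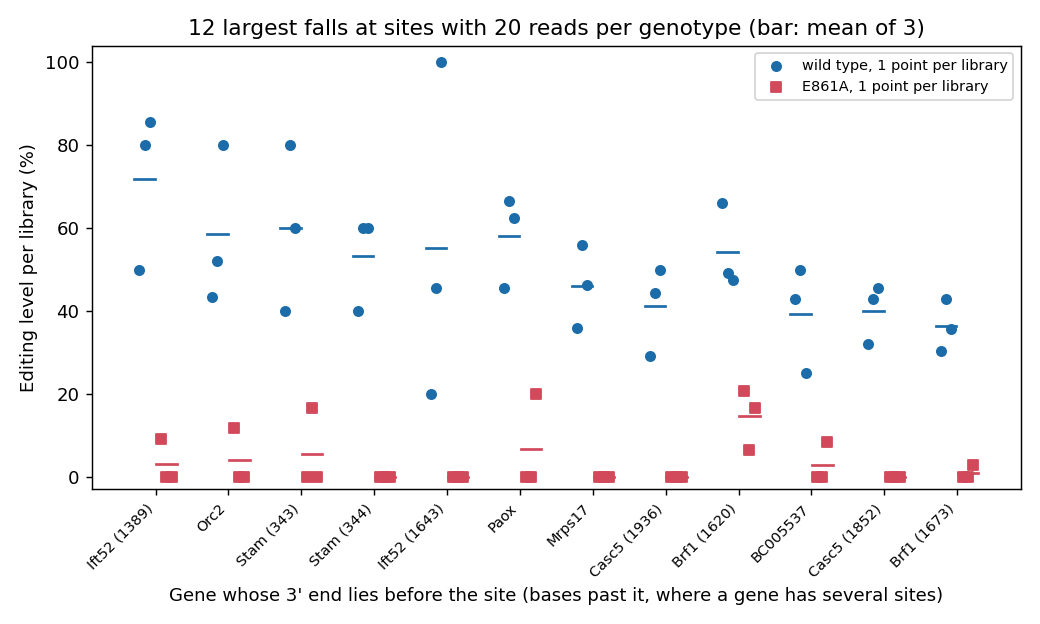
Editing level per library (%) at the 12 sites with the largest falls among members with at least 20 reads per genotype, labelled by the gene whose 3′ end lies before them. Blue circles are wild-type libraries, red squares E861A libraries and bars the means of 3; at each site the lowest circle lies above the highest square, and the Brf1 site at 1620 bases is the only one with all 3 E861A libraries above 0.

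Brf1, a subunit of the factor that loads RNA polymerase III, was followed by a region of 8 members at chr12:114195446-114196453. The site 1620 bases past its end kept the highest E861A level of all 77 lower members. It was edited in 31 of 47, 28 of 57 and 28 of 59 reads in wild type (66.0, 49.1 and 47.5%) and in 6 of 29, 2 of 31 and 6 of 36 reads in E861A (20.7, 6.45 and 16.7%). The fall from 53.4% to 14.6% (Wilson interval 8.89 to 23.0%) had an adjusted p of 5.97e-09. The next A downstream in the printed window, 3 bases away and covered by nearly the same reads, was edited in 29.8, 31.6 and 29.8% of wild-type reads and in 0 of 95 E861A reads, an upper limit of 3.16% (adjusted p = 1.86e-10). Another site, 1673 bases past the end, went from 36.6% to 1 of 77 reads (adjusted p = 3.66e-09). The Wilson interval of the first site in E861A thus lies above the limit of its neighbour, although that comparison was made after the values were seen. No inverted copy passed the search at any of the 8 Brf1 members. In the other 5 members of the region, about 1000 bases on, wild-type levels were 0.595 to 6.55%, and 1 of them was lower in E861A (11 of 168 to 0 of 149 reads, adjusted p = 0.0079). That call was lost without wild type 15, without E861A 6 or 19, and with male libraries only. Brf1 itself had 64.7 ± 9.4 and 53.8 ± 7.3 CPM (SD, n = 3 each; log2 fold change -0.26, adjusted p = 0.36).

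The region with the most lower members lay past H2-T24, a class I gene of the major histocompatibility complex. It held 10 members at chr17:36140909-36141706, 934 to 1731 bases past the 3′ end, and 8 of them were lower in E861A. Shown here is 1 of these 8 sites with its facing copy, in which the A sits opposite a T.
H2-T24 site, chr17:36141407-36141435, minus strand: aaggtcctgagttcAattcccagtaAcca
Copy facing the H2-T24 site, within chr17:36141619-36141707: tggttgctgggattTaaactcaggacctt
This site was edited in 4 of 35, 10 of 48 and 10 of 27 wild-type reads (11.4, 20.8 and 37.0%) and in 4 of 666, 2 of 393 and 7 of 422 E861A reads (0.601, 0.509 and 1.66%; adjusted p = 1.18e-18). The second capital in the window, 11 bases downstream, was not lower: it had 2 of 105 edited reads in wild type (1.90%) and 28 of 1305 in E861A (2.15%, Wilson interval 1.49 to 3.08%; adjusted p = 1). All 10 members had an inverted copy. The calls at 2 of the 8, those 934 and 1731 bases past the end, were lost without wild type 15, the second also with male libraries only, and there the level 934 bases past the end was 0 in wild type and 0.166% in E861A.

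The H2-T24 region also had the largest gain in covering reads among regions with a lower member. Reads per 1e6 gene reads and site were 0.796, 1.0 and 0.554 in wild type and 13.6, 8.96 and 8.12 in E861A, 13.0-fold higher on average with no overlap. The H2-T24 gene itself stood at 12.3, 20.8 and 9.67 CPM in wild type and at 164, 132 and 116 CPM in E861A (log2 fold change 3.27 ± 0.31, adjusted p = 0.00065). Genes of the other strand overlap these sites, A930015D03Rik and RP24-443D19.4, and the latter had 0 counts in every library. Whether the libraries keep strand is not given in the sources used here. The wild-type levels rest on 43 to 125 reads a site against 270 to 1597 in E861A.

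Tnfrsf14, a receptor of the tumour necrosis factor family, was followed by the most precisely measured falls. All 5 members past it were lower. The sites 3707 and 3708 bases past its 3′ end lie at neighbouring bases and face a copy that matches in 28 of 29 columns with T opposite the first of them.
Tnfrsf14 sites, chr4:154292598-154292626, minus strand: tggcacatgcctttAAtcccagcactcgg
Copy facing them, within chr4:154291269-154291360: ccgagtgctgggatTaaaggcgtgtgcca
The first A of the pair was edited in 48 of 306, 59 of 336 and 48 of 279 wild-type reads (15.7, 17.6 and 17.2%) and in 0 of 490, 0 of 394 and 0 of 418 E861A reads. The summed fall was from 16.8% to a level of at most 0.230% (3 of 1302 reads; adjusted p = 4.45e-61). The second A went from 6.99% to 0 of 1318 reads (adjusted p = 3.84e-24). The other 3 members, at chr4:154296060-154296095 and closer to the gene, had 8.61, 10.8 and 7.05% edited reads in wild type and 0, 0 and 0.309% in E861A. Cover moved in opposite directions in these 2 regions. In reads per 1e6 gene reads and site it was 7.50 ± 0.35 and 10.9 ± 0.99 in the far region but 10.2 ± 2.4 and 4.62 ± 0.92 in the near one (SD, n = 3 each), without overlap in either. The Tnfrsf14 gene fell, with 133 ± 34 CPM in wild type against 54.6 ± 15 CPM (SD, 3 livers each; log2 fold change -1.28 ± 0.27, adjusted p = 0.022), a call lost with sex as a covariate (adjusted p = 0.21) and without wild type 15 or 17 or E861A 6 or 16.

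**Figure D3:**
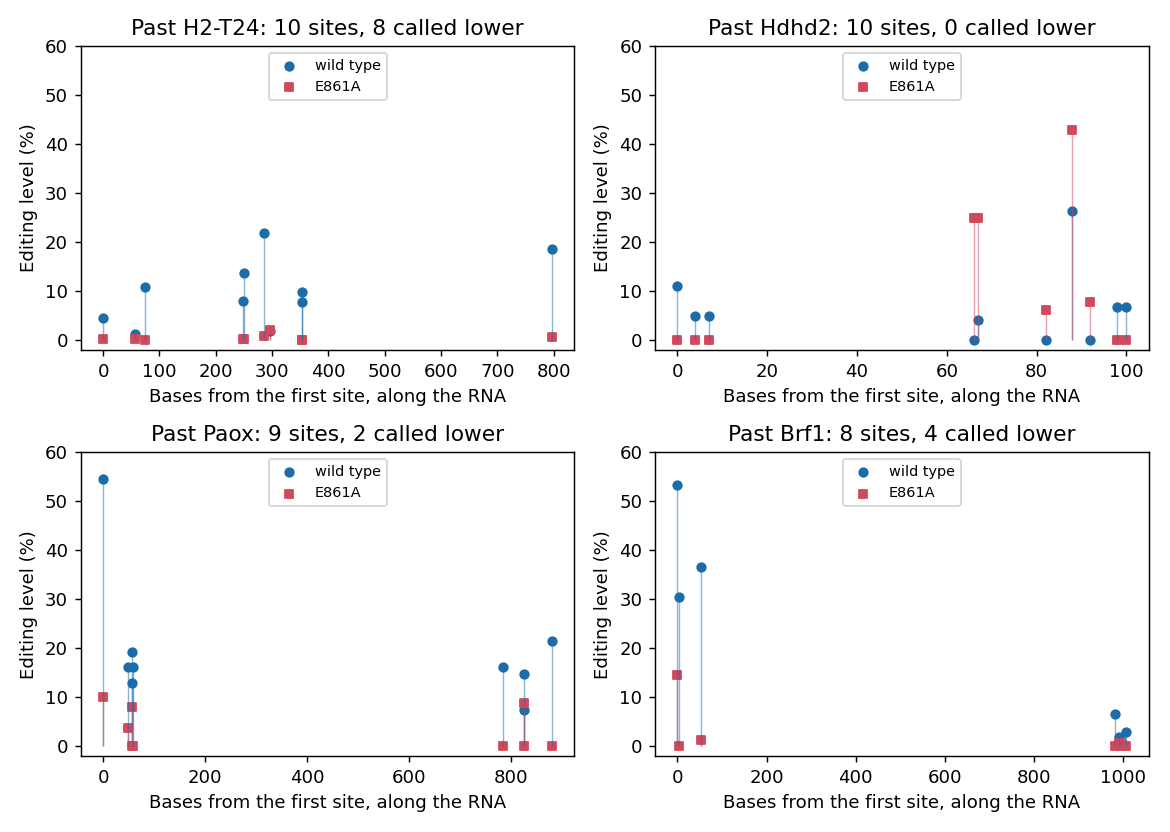
Editing level (%, reads summed per genotype) at the members of the 4 regions with most members, plotted by distance in bases from the first site along the RNA. Wild type is blue and E861A red; past H2-T24 and Brf1 most red points lie near 0, past Hdhd2 5 of 10 red points lie above the blue ones, and the 4 sites at the right of the Paox panel have Mtg1 as nearest gene on that strand.

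The region past Hdhd2, a phosphatase-like protein, held 10 members between positions 77213593 and 77213693 of chromosome 18, and 0 of them were called. Cover was low there, with 12 to 24 reads a site and genotype. Edited reads over covering reads in the region were 0, 12.9 and 3.06% in wild type and 17, 0 and 9.84% in E861A, so the groups overlapped. At 1 site 5 of 19 wild-type and 6 of 14 E861A reads were edited (26.3 and 42.9%, adjusted p = 0.77). All 10 members had an inverted copy.

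The region between Paox and Mtg1, at chr7:147321626-147322506, held 9 members of which 2 were lower. Beside the Paox site above, the last site of the region had 0, 5 and 1 edited reads of 11, 8 and 9 in wild type and 0 of 38 reads in E861A (adjusted p = 0.027). That call was lost without wild type 15, without any 1 of the E861A livers and with male libraries only. Region levels were 13.5, 27.1 and 21.6% in wild type and 2.22, 1.45 and 5.10% in E861A. Mtg1, a GTPase of mitochondrial ribosome assembly, and Paox were not called (log2 fold changes -0.06 and 0.20, adjusted p = 0.87 and 0.50).

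Of the 40 regions with lower members 22 held exactly 1. Neighbouring sites can share reads, and the clustering of lower members was not compared with that of all members. A total of 9 regions with at least 3 lower members held 37 of the 77. Besides those past H2-T24, Brf1, Orc2 and Tnfrsf14 these lay past Ipp, Optn, Oip5, Xrn1 and Hinfp, regions singled out here after their values were seen. Past Ipp, a kelch-domain protein, 5 of 7 members were lower, and region levels were 13.7, 20.4 and 14.5% in wild type and 0% in each E861A library. Past Optn, an autophagy receptor, 4 of 7 were lower (13.3, 11.5 and 16.7% against 0% in each E861A library). Past Oip5, a centromere protein, all 4 members were lower, with 10, 24.7 and 26.6% against 0%. None of the E861A libraries had an edited read in these 3 regions.

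Past Xrn1, the main cytoplasmic 5′ to 3′ exonuclease, members lay in separate regions. In that at chr9:95957572-95957659 levels were 8.60, 16.1 and 10.5% in wild type and 0.604, 0.324 and 0% in E861A. All 3 members of that region were lower. Cover there was 2.33-fold higher in E861A (1.36 ± 0.28 against 3.16 ± 0.68 reads per 1e6 gene reads and site), while the Xrn1 gene had 34.1 ± 4.5 and 30.7 ± 9.1 CPM (SD, n = 3 each; adjusted p = 0.75). The other region past Xrn1, at chr9:95956496-95956564, held 2 members, and 0 were called. Its levels were 7.95, 3.28 and 0% in wild type and 0, 0 and 0.926% in E861A, so the genotypes overlapped. Cover of that region was 1.35-fold higher in E861A, with overlap between libraries. Past Hinfp, a histone gene regulator, the 3 lower members had 1.34, 7.22 and 4.22% in wild type and 0, 0.467 and 0% in E861A. Levels differed up to several-fold between wild-type livers here, and each still lay above each E861A liver.

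The regions past the red cell genes Klf1 and Hbq1b were singled out after their values were seen, and the members past Epb4.9 and Hemgn, also expressed in red cell precursors and with 1 member each, were not called. In the region of 3 members that follows Klf1, an erythroid transcription factor, and runs up to Dnase2a, levels were 6.93, 4.83 and 12.2% in wild type and 0% in each E861A library, and 1 member, 1305 bases past Klf1, was lower. Past Hbq1b, a theta globin gene, the region 474 to 548 bases on had 12.4, 15.3 and 15.4% against 0% in each E861A library, with 2 of 3 members lower. The other region past Hbq1b, at chr11:32190434-32190511, also had 2 of 3 members lower. Its levels were 1.96, 8.89 and 2.60% in wild type and 0, 1.41 and 0.990% in E861A. Klf1 itself fell by 1.03 ± 0.24 on the log2 scale (SE; 356 ± 103 and 175 ± 25 CPM, SD over 3 livers each; adjusted p = 0.031), a call lost with sex as a covariate (adjusted p = 0.29) and without any 1 library except wild type 2. Hbq1b had 42.4 ± 14 and 43.7 ± 5.5 CPM (adjusted p = 0.94).

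Of the 5 deepest members 2 were lower, the Tnfrsf14 pair, and 3 were not called. The deepest lay 889 bases past Hspb9, a testis heat shock protein, on the strand opposite to Rab5c, with 12 of 2749 edited reads in wild type and 19 of 3374 in E861A (0.437 and 0.563%, adjusted p = 0.83). The second lay opposite Hnrnpl, a splicing factor, with 5 of 2760 and 12 of 3198 (0.181 and 0.375%, adjusted p = 0.56). At both sites the libraries of the genotypes overlapped. The third uncalled one was a site in AY036118.

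AY036118 is a noncoding transcript annotated on chromosome 17 where the genome carries ribosomal RNA sequence. Its 3 nearby members, in 2 regions, were edited alike in both genotypes, and the window of the deepest shows a G-rich and C-rich sequence without an inverted copy.
AY036118 site, chr17:39985486-39985514, minus strand: tgccgggagagcaaAgcgcgcgccccgac
That site had levels of 10.1, 9.82 and 13.6% in wild type and 10.4, 14.1 and 11.9% in E861A (11.4% of 1459 and 12.5% of 2127 reads, adjusted p = 0.74). The second had 21.1 and 20.2% (adjusted p = 0.94) and the third 5.91 and 6.10% (adjusted p = 1). These 3 sites held 569 of the 1134 edited reads in E861A (50.2%) but 9.32% of the edited reads in wild type. Without them edited reads were 7.28, 9.95 and 8.96% in wild type and 1.08, 1.41 and 1.45% in E861A (exact permutation p = 0.10), a ratio of 0.15 in place of 0.267.

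A further 7 members were at 80% or more in both genotypes. The 4 of them with at least 20 reads in each genotype, those with the highest wild-type levels among uncalled members, lay away from genes (2) or overlapped one (2). The site at position 48720918 of chromosome 15 was read as G in 51 of 51 wild-type and 39 of 40 E861A reads, and that at 34649768 of chromosome 5 in 34 of 34 and 40 of 41. The site at 52581005 of chromosome 7, which overlaps the ribosomal protein pseudogene Rpl14-ps1 and Trpm4, had 20 of 21 and 22 of 25. The site at 6372714 of chromosome 19, opposite the splicing factor gene Sf1, had 31 of 35 and 61 of 71, with 47.4% in E861A 19 against 100% in E861A 6 and 16. None of the 4 had an inverted copy. Their adjusted p was 0.77 or more. The fifth named uncalled site, 6138 bases past the cytokine receptor gene Crlf2, had 73.3, 66.7 and 66.7% in wild type and 50, 21.1 and 80% in E861A (adjusted p = 0.43), so E861A 19 lay above every wild-type liver.

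The 3 members higher in E861A at an unadjusted p under 0.05 were the Hdhd2 site 2018 bases past its end, a site past Nucb1, a calcium-binding protein of the Golgi, and a site past Entpd4, a nucleotide-cleaving enzyme of the Golgi. The Nucb1 site had 1 of 48 edited reads in wild type and 9 of 52 in E861A, found in all 3 E861A livers (2.08 and 17.3%, adjusted p = 0.086). The Entpd4 site had 0 of 58 and 4 of 52 (adjusted p = 0.19). The Hdhd2 site had 0 of 23 and 3 of 12 (adjusted p = 0.15). None of the 3 passed the adjustment.

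The label of the members was checked against GENCODE M1, an annotation of the same genome build. Of the 435 members 110 overlapped an annotated gene after all, 94 of them only on the strand opposite to the edited A, and 325 overlapped none. A majority followed a gene: 361 (83.0%) lay past the 3′ end of the nearest gene on the strand of the A, 311 of these within 5 kb, and 58 lay before the 5′ end of one. The distance past the 3′ end was 1673 bases at the median, with quartiles of 868 and 3093 bases. Among the lower members 72 of 77 lay past a 3′ end, 70 within 5 kb, and among the uncalled 289 of 358, 241 within 5 kb. Of the 325 members that overlapped no gene 63 were lower (19.4%).

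**Figure D4:**
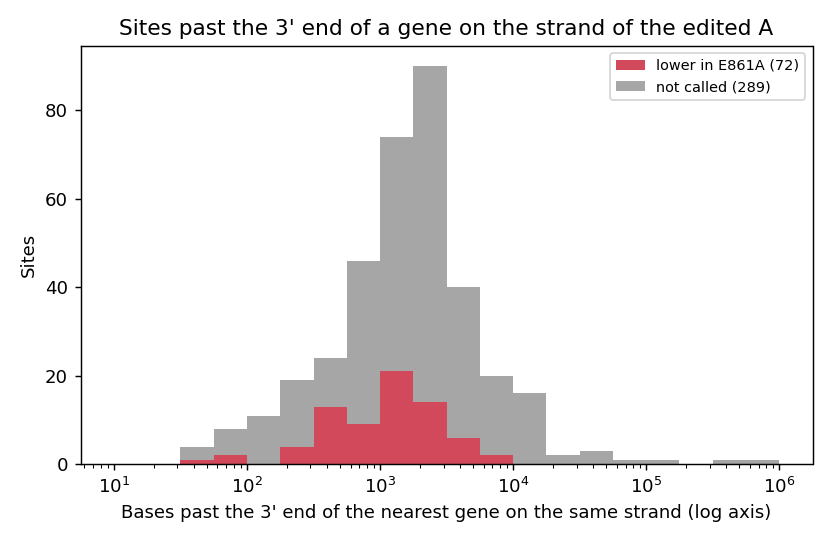
Number of members by distance past the 3′ end of the nearest gene on the strand of the edited A (log axis), lower sites in red and uncalled sites in grey stacked on them. Both pile up past 1000 bases, with medians of 1229 bases for the 72 lower and 1836 bases for the 289 uncalled sites.

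Sites also carried the authors' label of whether they were known before. Of 86 members labelled both known and found in these data, 46 were lower (53.5%), with a median wild-type level of 23.0%. Of 48 labelled as found in these data alone 13 were lower (27.1%). Of 301 labelled as known only 18 were lower (5.98%), with a median wild-type level of 5.56%. Since the second and first label depend on reads of these libraries, the order of these shares is a description.

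The bases beside the edited A are given as shares, with no test of their differences. Before it stood T in 53.2% of the 77 lower members, A in 28.6%, C in 15.6% and G in 2.60%, and in the 358 uncalled members T in 48.0% and G in 5.31%. At the 3448 tested sites outside the set the base before was T in 41.3% and G in 8.64%. After the A stood G in 45.5% of lower and 45% of uncalled members and in 45.6% of the other sites. Split by call, the other sites had G there in 34.6% of the lower and 47.8% of the uncalled ones. C after the A stood in 7.79% of lower and 16.5% of uncalled members, and T in 16.9 and 12.6%. A T or A before and a G after the edited base are the neighbours that ADAR enzymes are known to favour.

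An inverted copy was counted where the site with 50 bases on either side aligned over at least 40 bases, at 75% identity or more, to the opposite strand within 2500 bases and the alignment covered the edited base. It was found at 51 of 77 lower members (66.2%), at 228 of 358 uncalled members (63.7%) and at 61.9% of the 3448 other sites. Among those other sites it was found at 78.8% of the lower and 58.7% of the uncalled ones. With at least 85% identity it was found at 32.5% of lower and 13.1% of uncalled members, and at 14.4% of the other sites. With copies only within 1000 bases the shares were 36.4% of lower members, 42.7% of uncalled members and 43.9% of the other sites. So the looser search hardly told lower from uncalled members, and at 85% the lower members held the higher share.

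The base that faced the edited A was T in 167 of the 279 members with a copy, C in 108, A in 4 and G in 0. Members facing a C had higher wild-type levels among the lower ones (37.8% at the median of 18 sites, against 18.5% at the 32 facing a T), but not among the uncalled (7.56 and 7.69%). This split was looked at after the copies of the top sites were seen. Among all members with a copy and at least 20 reads in each genotype the medians were 7.56% for the 72 facing a C (quartiles 3.95 and 14.7%) and 6.99% for the 93 facing a T (3.45 and 13.3%). The quartile ranges overlap widely. The lower members were chosen by the contrast, so the difference among them is a description only.

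Genes next to the members fell more often than they rose. Within 10 kb lay 181 nearest genes, of which 172 were tested. Of these 10 rose and 19 fell, 5.81 and 11% of those tested, against 7.77% and 4.26% of all 16511 genes, and the median log2 fold change was -0.12 against 0.04 over all genes. Of 32 genes on the strand of the A whose 3′ end lay within 10 kb before a lower member, 3 rose (9.38%), H2-T24 among them, and 4 fell (12.5%). Counting instead the nearest gene on either strand, 35 genes lay next to lower members, of which 34 were tested, 2 rose (5.88%) and 5 fell (14.7%). Pck2, the mitochondrial form of phosphoenolpyruvate carboxykinase, rose from 71.6 ± 14 to 141 ± 21 CPM, and Soat1, which esterifies cholesterol, from 30.7 ± 6.1 to 53.4 ± 5.5 CPM (SD, n = 3 each; adjusted p = 0.015 and 0.024). The 5 that fell were Casc5 (log2 fold change -1.0, adjusted p = 0.0051, and 0.053 with sex as a covariate), Tnfrsf14, Klf1, the RNA helicase gene Ddx19a (-0.73, adjusted p = 0.024) and the sialyltransferase gene St3gal2 (-0.77, adjusted p = 0.048). Of these 7, Casc5 and Pck2 kept their call without wild type 15, and both Pck2 and Soat1 lost it without E861A 16 or wild type 17. Soat1 lost it also without E861A 19. Ddx19a lost it without wild type 15 or 17 or E861A 16, and St3gal2 without any 1 library except wild type 2. The count of 19 that fell became 0 with sex as a covariate and 2 without wild type 17, and the 10 that rose became 2 and 2. Leaving out wild type 15 or E861A 16 left 5 that fell, E861A 6 or 19 left 11, and wild type 2 gave 31. Those that rose were 3 without wild type 15, 5 without E861A 6 and 1 without E861A 16. The shares over all genes in these settings are not given here, so these counts show no change particular to the neighbouring genes.

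Among the named sites' genes beyond these, Ift52, Orc2, Stam, Paox, Mrps17, Brf1, BC005537, Hdhd2 and Hspb9 were not called (adjusted p of 0.19 or more). Orc2 had 139 ± 22 and 89.0 ± 37 CPM (log2 fold change -0.64) and passed only without E861A 6 (adjusted p = 0.027). The nearest genes with the smallest p next to uncalled members included AW011738, 5133401N09Rik, Ccdc27, Epb4.9, Gm16867, Smpd4 and Hemgn. Of these Epb4.9, which encodes the red cell membrane protein dematin, fell from 439 ± 153 to 165 ± 6.1 CPM, and Hemgn, a nuclear protein of blood progenitors, from 1008 ± 298 to 313 ± 119 CPM (adjusted p = 0.011 and 0.015). Both calls were lost with sex as a covariate (adjusted p = 0.10 and 0.15), that of Epb4.9 also without E861A 6 and that of Hemgn without E861A 16 or wild type 17.

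Marker levels of the cell types in the tissue are given beside these genes. The summed level of 5 hepatoblast markers was 14816 to 19081 CPM in wild-type livers against 18190 to 26677 CPM in E861A livers. The 5 macrophage markers summed to 142 to 177 and 122 to 155 CPM, the 4 endothelial to 242 to 298 and 208 to 343 CPM, the 4 mesenchymal to 343 to 1240 and 445 to 1088 CPM, and the 4 lymphoid to 8.53 to 11.8 and 24.7 to 28.9 CPM. The macrophage and endothelial sums hold markers that moved in opposite directions without overlap. Higher in E861A were Cd68 (10.8 to 11.8 and 17.2 to 20.2 CPM) and Pecam1 (37.2 to 40.8 and 55.6 to 75.5 CPM). Lower were Mrc1 (47.7 to 59.5 and 31.5 to 41.1 CPM), Emr1 (19.5 to 24.6 and 8.75 to 13.6 CPM) and Stab2 (67.4 to 103 and 23.3 to 38.8 CPM). The other macrophage and endothelial markers overlapped. Of 4 erythroid markers Klf1, Slc4a1 (2981 to 6992 and 1197 to 1356 CPM) and Alas2 (658 to 1611 and 450 to 474 CPM) were lower in every E861A library than in every wild-type library, while Hba-a1 overlapped (5129 to 14895 and 5539 to 7412 CPM). Of the lymphoid markers Lck stood at 5.24 CPM or less in wild type and at 18.5 to 23.7 CPM in E861A, and Rag1 at 0.414 to 1.41 and 0.0709 to 0.197 CPM. Alb and Afp, which define hepatoblasts, were at 5538 CPM or more in every library, and none of the markers named here was at 0. In bulk RNA fewer cells of a type and less RNA per cell cannot be told apart, and the markers' part in the gene changes was not tested.

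Covering reads over all members, scaled to reads per 1e6 gene reads, were 314, 288 and 282 in wild-type livers against 419, 393 and 386 in E861A livers, 1.35-fold higher with no overlap (exact permutation p = 0.10). This rested on the H2-T24 region: without its 10 sites the values were 306, 278 and 277 in wild-type against 283, 303 and 305 in E861A livers, 1.04-fold (exact permutation p = 0.40). In 16 of the 205 regions every E861A library had more cover per site than every wild-type library, and in 25 regions every one had less. The same count was not made over the other tested sites, so these numbers show no cover change particular to the members. Cover differed 4-fold or more in 3 regions. Beside H2-T24 these were a site past AW011738 (0.109 ± 0.084 against 3.76 ± 0.54 reads per 1e6 gene reads, SD, n = 3 each), where 13 wild-type reads held no edit and 7 of 454 E861A reads did (1.54%, adjusted p = 1), and a site past Epb4.9 (0.857 ± 0.41 against 0.138 ± 0.046). AW011738, a noncoding transcript, rose from 2.1 ± 0.42 to 54.3 ± 2.8 CPM (log2 fold change 4.69 ± 0.19, adjusted p = 7.77e-06).

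**Figure D5:**
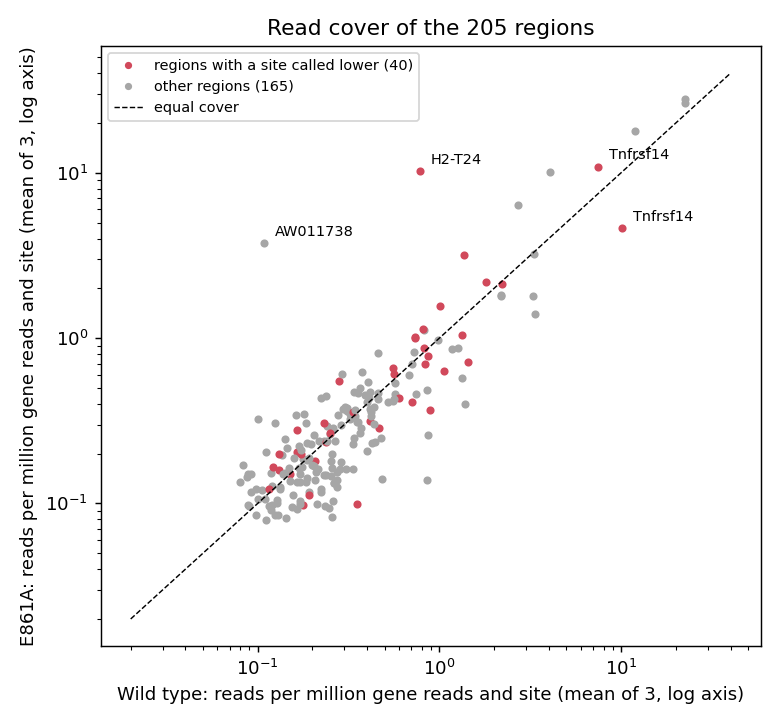
Covering reads per 1e6 gene reads and site in E861A (vertical, log axis) against wild type (horizontal, log axis), 1 point per region and means of 3 libraries. H2-T24 and AW011738 stand far above the dashed line of equal cover, at 13.0-fold and 34.6-fold, and the 2 Tnfrsf14 regions lie on opposite sides of it.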

How the data were processed

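Editing levels and gene expression were taken from 6 fetal liver RNA libraries, 3 per genotype, grouped by the genotype in their titles. Members and gene lists were chosen with earlier results of these data known. Per the submitters' processing notes the tools named include TopHat2 (2.0.8), Bowtie2 (2.1.0.0), SAMtools (0.1.19), Trimmomatic (0.30), BWA, HTSeq, Cufflinks, edgeR and limma, with the builds mm9 and NCBIM37. The caller of the editing sites is not given in the sources used here. Per the file headers, the site table holds the count of covering reads and the level as a fraction of them, as deposited by the authors, and the table of genes gives unscaled counts, as deposited. A fraction was turned into edited reads by multiplying it with the cover, and the product lay at most 2e-06 away from whole numbers. The strand of a site was that of its A, and all 3883 reference bases matched NCBIM37.

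Fisher's exact test, the quasi-binomial fit (dispersion at least 1) and Benjamini-Hochberg adjustment ran over all 3883 sites with Python 3.11.15 and SciPy 1.17.1. Both site tests were also run on reads simulated without spread between libraries. Such reads cannot check the pooled Fisher test where livers of a genotype differ. For genes the quasi-likelihood test of edgeR 4.0.16 was used (R 4.3.3; 16511 genes after filterByExpr, TMM scaling, robust fit), with DESeq2 1.42.0 as an alternative. CPM are TMM-scaled. Wilson intervals at 95% and the level that 3 reads would have cover counting error only, and reads without molecular identifiers are not independent molecules. Inverted copies were searched with blastn 2.17.0 (word size 7), and genes came from GENCODE M1. The named sites were the 12 lower members with the largest fall among those with at least 20 reads per genotype and no overlap between libraries, the 5 deepest members, members called higher (0), the 5 uncalled ones with the highest wild-type level at 20 reads or more, and the 4 regions with most members. Neighbouring genes were named next to these sites, and up to 10 more by smallest p. The alternatives were other read minimums, fits without each library or with male libraries only, other gene models and other copy limits. Others were added after seeing the data, leaving out the AY036118 sites and leaving out the H2-T24 region. Sites on X and Y and those with fewer reads were left out of the comparisons. No paired analysis was possible because no number is shared between genotypes. One erythroid marker is not reported here.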

Additional observations from a re-analysis of the deposited data

How the results depend on the processing

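The count of 77 lower members stayed within 1.5 times under 20 reads per genotype, under 3 reads in each library and for members that overlap no gene. It was 0 with the quasi-binomial fit, 37 with male libraries only and 29 when 1 site per region was counted. Leaving out 1 library gave 48 (without E861A 6) to 81 (without wild type 2). No setting gave a higher member. The deepest 10 sites removed, the pooled difference was -8.08 points in place of -6.57 and the cover ratio 1.23 in place of 1.35. Without the H2-T24 region the cover ratio was 1.04. Leaving out 1 library kept the direction of the mean level, the pooled level and the cover. Inverted copies were at 16.6% of members with 85% identity and at 41.6% within 1000 bases, against 64.1%. Of the nearest genes 6 rose with all genes of at least 1 count and 2 with sex as a covariate, and 1 to 7 rose when 1 library was left out. Of them 30 fell with DESeq2 and 0 with sex as a covariate, and 2 to 31 fell when 1 library was left out. The shares over all genes in these settings are not given beside them. The H2-T24 site 934 bases past the gene turned from -4.38 points to 0.166 points with male libraries only. The cause of these changes was not tested, apart from the fewer reads and sites that the settings themselves leave. Depth limits 171 of the 250 uncalled members without an edited E861A read, whose wild-type level lay below what 3 reads make of the E861A cover.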

Other observations

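Intergenic sites outside the comparisons were counted too. The 542 autosomal ones with fewer reads held 975 to 1324 covering reads per wild-type library and 686 to 1008 per E861A library. On X and Y 9 intergenic sites had enough reads and 2 were called lower; these chromosomes differ in dose between the sexes, so they are given as counts only. A total of 21 pairs of members lay at neighbouring bases, like those past Stam and Tnfrsf14.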
